A study of Mus musculus with 96 samples.

Results

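The genes described here are 10 mouse Kruppel-like factors (KLFs): Klf2, Klf3, Klf4, Klf5, Klf6, Klf7, Klf9, Klf10, Klf13 and Klf15. They were taken by gene symbol from a table of 54150 rows, and all 10 had at least 1 count in the series. The list was set with the response of Klf6 to a block of complex I or complex III of the respiratory chain in myoblasts in view. That rule names no myoblast line. The levels in luciferase control myoblasts given piericidin or antimycin were taken as those that chose the members, and they are given below as a description with no test. Whether values of the other myoblast lines also entered the choice is not known, so tests of Klf6 with these inhibitors there are no independent support.

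The study measured polyA RNA of C2C12 cells, a mouse myoblast line that fuses into myotubes when serum is withdrawn, to follow how muscle cells respond to different mitochondrial blocks in different metabolic states. In all, 96 libraries fell into 35 conditions, of which 26 had 3 replicates and 9 had 2. Proliferating myoblasts (45 libraries, 10% dialyzed fetal bovine serum) were stable lentiviral lines that expressed a transgene from the doxycycline-inducible TRE3G promoter, and every myoblast library, controls included, received 300 ng/ml doxycycline. The transgene was luciferase as a control, LbNOX (a bacterial enzyme that oxidizes NADH to NAD+ in the cytosol), mitoLbNOX (the same enzyme sent to mitochondria) or NDI1 (a yeast NADH dehydrogenase that can stand in for complex I). Cells after 24 hr in low serum (9 libraries) and myotubes after 4 days in 2% dialyzed horse serum (42 libraries) carried no lentiviral transgene, and 15 of the myotube libraries came from cultures given adenovirus with GFP alone or GFP with LbNOX. Treatment lasted 10 hr with the solvent DMSO, 0.5 µM piericidin (complex I), 0.5 µM antimycin (complex III) or 1 µM oligomycin (ATP synthase). Myotubes also received 0.5 µM BAM15 (an uncoupler), 5% oxygen from the night before, or oligomycin together with piericidin, BAM15 or 5% oxygen. Luciferase and LbNOX myoblasts further received 20 µg/ml chloramphenicol, which blocks mitochondrial protein synthesis, or DMSO for 48 hr. The study names uridine in the medium for the chloramphenicol treatment, and its media for the 10 hr inhibitor treatments lacked uridine and pyruvate. NDI1 myoblasts, GFP myotubes and the 48 hr groups had 2 replicates each. Cell state cannot be told apart from transduction, doxycycline and serum, since these changed together.

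KLFs are transcription factors with 3 zinc fingers at the carboxy-terminal end that bind CACCC boxes and other GC-rich DNA, while their other parts recruit coactivators or corepressors. Klf2, Klf4, Klf5, Klf6 and Klf7 are mostly described as activators, Klf3 binds the corepressor CtBP, and Klf9, Klf10 and Klf13 recruit Sin3 and histone deacetylases. In muscle, Klf15 is known for control of amino acid and lipid use, Klf2 and Klf4 act downstream of the kinase ERK5 in fusion, and Klf3 and Klf5 act on muscle gene promoters.

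Total counts ran from 6458295 to 15366745 per library, with a median of 10336588.5. The labelled states were checked against marker genes fixed for this purpose. The summed level of 5 proliferation genes (Mki67, Top2a, Ccnb1, Cdk1 and Ccna2) was 729 to 1516 CPM in myoblasts, 183 to 262 CPM after 24 hr in low serum and 23.3 to 169 CPM in myotubes, where CPM is the count of a gene scaled to library size after TMM normalization. The summed level of 7 myotube genes (Myog, Mymk, Myh3, Ckm, Acta1, Tnnt1 and Actn2) was 11.1 to 93.7 CPM in myoblasts, 10409 to 11099 CPM after 24 hr and at least 9699 CPM in myotubes, so that it set myoblasts apart but not 24 hr cells from myotubes. The summed level of 4 myoblast genes (Myf5, Myod1, Pax7 and Des) did not follow the labels, at 340 to 784 CPM in myoblasts, 1893 to 2328 CPM after 24 hr in low serum and 3218.5 to 4158 CPM in myotubes. Des, the muscle filament gene desmin, made up most of it, with DMSO means of 400, 2068 and 3903 CPM in luciferase myoblasts, 24 hr cells and myotubes, beside 123, 201 and 156 CPM of Myod1. Sums of 5 adipocyte, 5 endothelial and 5 macrophage markers reached at most 21.1, 5.01 and 8.45 CPM. The luciferase, LbNOX, NDI1 and eGFP rows had counts only in lines that carry them, with mitoLbNOX counted in the LbNOX row and eGFP also in LbNOX myotubes. Nothing in the labels said that replicates came from separate cultures, so p-values measure the spread between these libraries, which may be technical.

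The promoters of 8 members were in the RefSeq table (GRCm38.p6). Those of Klf5 and Klf10 were not. Promoters of Klf6 and Klf4, whose levels had the widest ranges among the well-counted members, and of Klf9 and Klf15 are printed 5′ to 3′, up to 250 bases before the RefSeq start and without annotated exon bases. Capitals mark the letters CACCC, the letters TGACG and the letters CCAAT wherever they are read on either strand.
Klf6 (chr13:5861239-5861481, + strand): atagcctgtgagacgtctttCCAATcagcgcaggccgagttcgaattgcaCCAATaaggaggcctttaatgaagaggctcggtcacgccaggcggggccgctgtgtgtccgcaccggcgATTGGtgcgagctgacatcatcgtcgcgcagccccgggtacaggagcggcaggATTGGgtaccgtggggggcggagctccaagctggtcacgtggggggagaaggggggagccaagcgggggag
Klf4 (chr4:55532476-55532725, - strand): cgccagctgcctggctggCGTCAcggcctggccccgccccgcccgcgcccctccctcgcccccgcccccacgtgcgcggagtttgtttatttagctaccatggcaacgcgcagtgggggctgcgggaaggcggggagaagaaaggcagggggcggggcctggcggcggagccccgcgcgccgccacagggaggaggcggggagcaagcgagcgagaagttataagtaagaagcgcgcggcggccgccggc
Klf9 (chr19:23140976-23141225, + strand): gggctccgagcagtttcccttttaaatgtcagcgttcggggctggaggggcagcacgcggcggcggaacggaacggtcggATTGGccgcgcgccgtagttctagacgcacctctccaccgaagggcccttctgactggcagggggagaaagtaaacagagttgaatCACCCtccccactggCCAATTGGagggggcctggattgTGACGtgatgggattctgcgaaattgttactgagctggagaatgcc
Klf15 (chr6:90462326-90462575, + strand): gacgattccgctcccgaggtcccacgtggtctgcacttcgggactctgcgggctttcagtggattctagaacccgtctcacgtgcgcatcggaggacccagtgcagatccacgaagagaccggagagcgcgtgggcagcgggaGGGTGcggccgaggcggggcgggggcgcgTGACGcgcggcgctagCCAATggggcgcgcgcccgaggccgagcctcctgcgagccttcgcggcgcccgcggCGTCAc

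In the 250 bases before the start, searched on both strands, Klf6 held 4 matches to CCAAT, at 230, 200, 131 and 78 bases before the start, whereas 33.8% of the 32851 promoters held at least 1. Klf9 held 3 CCAAT matches, of which those at 69 and 66 bases overlap, Klf13 held 2, Klf15 held 1, and Klf2, Klf3, Klf4 and Klf7 held 0. CACCC, the core of the box that KLFs bind, was in 52% of all promoters and had 5 matches in Klf3, 3 in Klf7, 1 each in Klf2, Klf9, Klf13 and Klf15, and 0 in Klf6 and Klf4. The GC box GGGCGG was in 32.7% of all promoters and had 6 matches in Klf3, 4 in Klf4, 3 in Klf13, 2 in Klf2, 1 each in Klf6, Klf7 and Klf15, and 0 in Klf9. TGACG, the core of the cyclic AMP response element, was in 17.8% of all promoters and had 2 matches in Klf15 and 1 each in Klf2, Klf4, Klf9 and Klf13. The 8 promoters held no match to the full element TGACGTCA (1.55% of all promoters), which contains TGACG, to TGATGNAA, a composite of a C/EBP and an ATF site (3.45%), or to TATAAA (12.4%). These matches describe letters and were not tied to any factor.

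Per kilobase of exon in DMSO libraries, Klf6 and Klf10 had the highest levels of the 10 genes in every state. In luciferase myoblasts Klf6 had 25.9 CPM per kilobase and Klf10 22.4, followed by Klf5 at 5.26, Klf13 at 2.92, Klf7 at 2.3, Klf3 at 1.66, Klf4 at 1.44, Klf9 at 0.662, Klf2 at 0.147 and Klf15 at 0. In untransduced myotubes Klf10 had 23.9 CPM per kilobase, Klf6 23.3, Klf5 15.1 and Klf4 2.74. Without the length correction, the condition means of Klf6 ran from 62.6 to 1049.7 CPM, those of Klf4 from 3.1 to 42.1, those of Klf7 from 11.6 to 53.8 and those of Klf10 from 30.7 to 116 CPM. Klf2 was at 0 in 3 libraries and had over 15 counts in 18, and Klf15 was at 0 in 23 libraries and had over 15 counts in 17, so that their values rest on few reads. The other 8 members had at least 22 counts in every library. Exons of Klf3 overlap those of Gm20033 on the other strand, and exons of Klf7 overlap those of Gm13748 and Gm26649 on the other strand. The libraries were not strand-specific, so reads of these pairs cannot be told apart.

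Klf6, an early-response factor that many kinds of injury induce, had its highest levels in control myoblasts whose complex I or complex III was blocked. The luciferase DMSO libraries had 117, 113 and 112 CPM of Klf6, the piericidin libraries 503, 530 and 511 CPM, and the antimycin libraries 1043, 1081 and 1025 CPM. These are 4.53 ± 0.119 (SD, n = 3) times and 9.23 ± 0.249 times the DMSO mean, and no values of the 3 groups overlapped. The other members, described in the same way, went from 0.328 ± 0.0105 times DMSO for Klf10 to 6.33 ± 0.332 times for Klf4 with piericidin, and from 0.384 ± 0.0479 times for Klf10 to 9.59 ± 0.418 times for Klf4 with antimycin, Klf2 and Klf15 left aside. Klf7 stood at 2.37 ± 0.187 and 2.88 ± 0.0676 times DMSO with piericidin and antimycin, Klf9 at 2.38 ± 0.408 and 2.95 ± 0.421, Klf5 at 1.42 ± 0.0195 and 2.16 ± 0.0493, and Klf13 at 1.31 ± 0.103 and 1.36 ± 0.041. In Klf3 the DMSO and treated libraries overlapped under both inhibitors. The summed proliferation genes moved in the same libraries, from a mean of 1401 CPM with DMSO to 1145 with piericidin and 838 with antimycin. From DMSO to antimycin the summed myotube genes went from 20 to 88.3 CPM, the myoblast genes from 537 to 765, the adipocyte genes from 9.37 to 20.3, of which Pparg was 8.73 and 20, and the macrophage genes from 1.93 to 6.18, of which Cd68 was 0.956 and 5.85. With piericidin these 4 sums were 30.9, 536, 5.57 and 1.59 CPM. The part of these lists in the KLF levels was not tested. In bulk RNA, a change in the number of cells of a kind and a change in RNA per cell cannot be told apart.

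**Figure D1:**
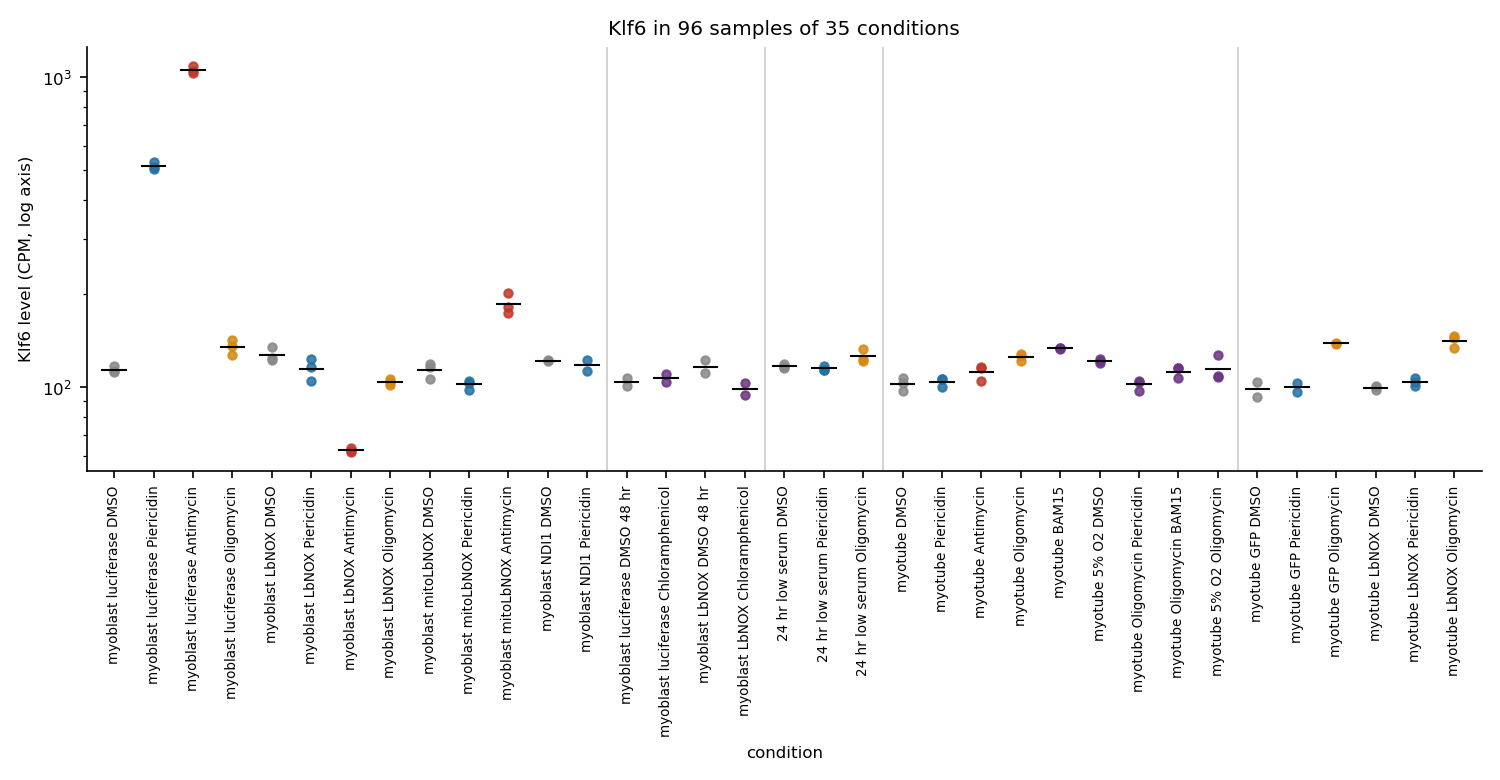
Klf6 in CPM (log axis) in each of 96 libraries, grouped by the 35 conditions, with a black line at each condition mean, grey points for DMSO, blue for piericidin, red for antimycin, orange for oligomycin and purple for other treatments. Luciferase myoblasts with antimycin and piericidin stand above all other conditions, mitoLbNOX myoblasts with antimycin come next at 174 to 201 CPM, and LbNOX myoblasts with antimycin are lowest at 61.9 to 63.5 CPM.

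Ranked by mean Klf6 level, the conditions fell into a top set of 3, a single lowest condition and a long middle. Luciferase myoblasts with antimycin, luciferase myoblasts with piericidin and mitoLbNOX myoblasts with antimycin came first, each apart from the next. LbNOX myoblasts with antimycin came last, apart from the rest. The 31 conditions between had means from 98.5 to 141 CPM, and each overlapped its neighbour in the order.

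Oligomycin changed most members in luciferase myoblasts, in a comparison that shares its DMSO libraries with the values that chose the genes. By edgeR's quasi-likelihood test, 50.8% of the 11981 genes tested passed an adjusted p (Benjamini-Hochberg) of 0.05, and 8 of 9 members tested did so, 7 up and 1 down, or 7 of 8 without Klf15, which passed the count filter through few groups. Klf6 had 136, 142 and 127 CPM against 117, 113 and 112 with DMSO, all above, and rose by 0.26 ± 0.052 (SE) on the log2 scale (adjusted p = 0.000105). Klf4, which acts in cell cycle arrest and differentiation, had 14.2, 17.6 and 15.1 CPM against 4.55, 4.8 and 3.8, and rose by 1.84 ± 0.18 on the same scale (adjusted p = 4.79e-10). Klf10, a repressor known as a TGF-β inducible early gene, went the other way, with 44.8, 50.4 and 48.7 CPM against 96.9, 88.3 and 95.3, and fell by 0.95 ± 0.078 on the log2 scale (adjusted p = 1.26e-11). Klf5 (0.78 ± 0.1, adjusted p = 1.54e-07), Klf13 (0.76 ± 0.11, 1.18e-06) and Klf7 (0.57 ± 0.1, 3.51e-05) rose with no overlap. Klf9, a target of glucocorticoid and thyroid hormone receptors, rose by 0.64 ± 0.19 (adjusted p = 0.00516), but without the libraries numbered 2 its adjusted p was 0.119. Klf3 stood at 0.12 ± 0.12 and did not pass. The median log2 fold change was 0.60 over the 8 members without Klf15 and -0.01 over all genes. The summed proliferation genes had a mean of 1118 CPM with oligomycin against 1401 with DMSO, the myoblast genes 461 against 537, the myotube genes 27.3 against 20 and the adipocyte genes 4.94 against 9.37, and their part was not tested.

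In LbNOX myoblasts oligomycin moved Klf6 the other way. This line has DMSO libraries of its own, with 135, 124 and 122 CPM of Klf6. With oligomycin the values were 106, 104 and 102 CPM, all below, and Klf6 fell by 0.26 ± 0.052 on the log2 scale (adjusted p = 0.00021). The response differed from that of luciferase myoblasts by -0.52 ± 0.074 in log2 units (adjusted p = 1.4e-05, interaction term), in a comparison where 7.98% of genes passed. This interaction also uses the luciferase DMSO libraries, which served the comparisons that chose the genes. Klf10 was the other of 2 members in that interaction, at 0.40 ± 0.11 (adjusted p = 0.0196), with 65, 73.1 and 68.5 CPM with oligomycin against 109, 101 and 99.2 with DMSO. The Klf10 interaction was lost without the libraries of any 1 replicate number (adjusted p = 0.162, 0.0843 and 0.145). Oligomycin in LbNOX myoblasts called 35.2% of genes and 8 of 9 members. Klf4 (1.67 ± 0.19, adjusted p = 3.45e-08), Klf13 (0.59 ± 0.11, 0.000123), Klf7 (0.56 ± 0.11, 9.61e-05) and Klf5 (0.44 ± 0.1, 0.00104) rose, and Klf10 fell by 0.55 ± 0.077 (1.07e-06). Klf9 had a log2 fold change of 0.52 ± 0.18 (adjusted p = 0.0276), which did not pass without any 1 replicate number (0.165, 0.113 and 0.159). Klf5 did not pass without the libraries numbered 2 (adjusted p = 0.0859), nor Klf7 without those numbered 1 (0.0559). Klf15 was the eighth member called and is described with the low-count genes. From DMSO to oligomycin in LbNOX myoblasts the summed proliferation genes went from 1383 to 1071 CPM, the myoblast genes from 439 to 351, the adipocyte genes from 11.6 to 4.82, the myotube genes from 18.3 to 24.4 and the macrophage genes from 0.919 to 2.04 CPM, and the LbNOX transgene had 5925 to 10412 counts per library against 9805 to 13457. Their part in the KLF responses was not tested.

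Antimycin separated the LbNOX from the mitoLbNOX myoblasts in 4 members. In mitoLbNOX myoblasts Klf6 had 201, 174 and 181 CPM with antimycin and 106, 116 and 119 with DMSO, all above, and rose by 0.75 ± 0.052 on the log2 scale (adjusted p = 3.52e-13). In LbNOX myoblasts it had 62.4, 61.9 and 63.5 CPM against 135, 124 and 122, all below, and fell by 0.98 ± 0.054 (adjusted p = 2.13e-15). The interaction was -1.73 ± 0.075 log2 units for LbNOX minus mitoLbNOX (adjusted p = 2.29e-17), in a comparison where 29.2% of genes passed. These Klf6 tests are a description if the 2 lines also entered the choice of the genes. Klf4 had 17.6, 14.2 and 19.3 CPM with antimycin in mitoLbNOX myoblasts against 5.23, 4.78 and 4.38, and 6.08, 3.13 and 4.44 in LbNOX myoblasts against 2.69, 2.85 and 3.78, with an interaction of -1.25 ± 0.27 (adjusted p = 0.000704). The mitoLbNOX groups of Klf4 lay apart, and the LbNOX groups overlapped. Klf13, a factor that also acts in heart and lymphocytes, had 9.86, 9.16 and 9.72 CPM with antimycin in LbNOX myoblasts against 17.9, 20.6 and 20.5, all below, while its mitoLbNOX groups overlapped, and its interaction was -1.15 ± 0.17 (adjusted p = 5.17e-06). Klf7, best known from neurons, had an interaction of -0.77 ± 0.15 (adjusted p = 0.000246). Klf10 was not told apart between the lines (0.05 ± 0.11, adjusted p = 0.803), Klf5 stood at -0.38 ± 0.15 (0.0507), Klf9 at -0.65 ± 0.26 (0.0627) and Klf3 at -0.27 ± 0.17 (0.256).

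**Figure D2:**
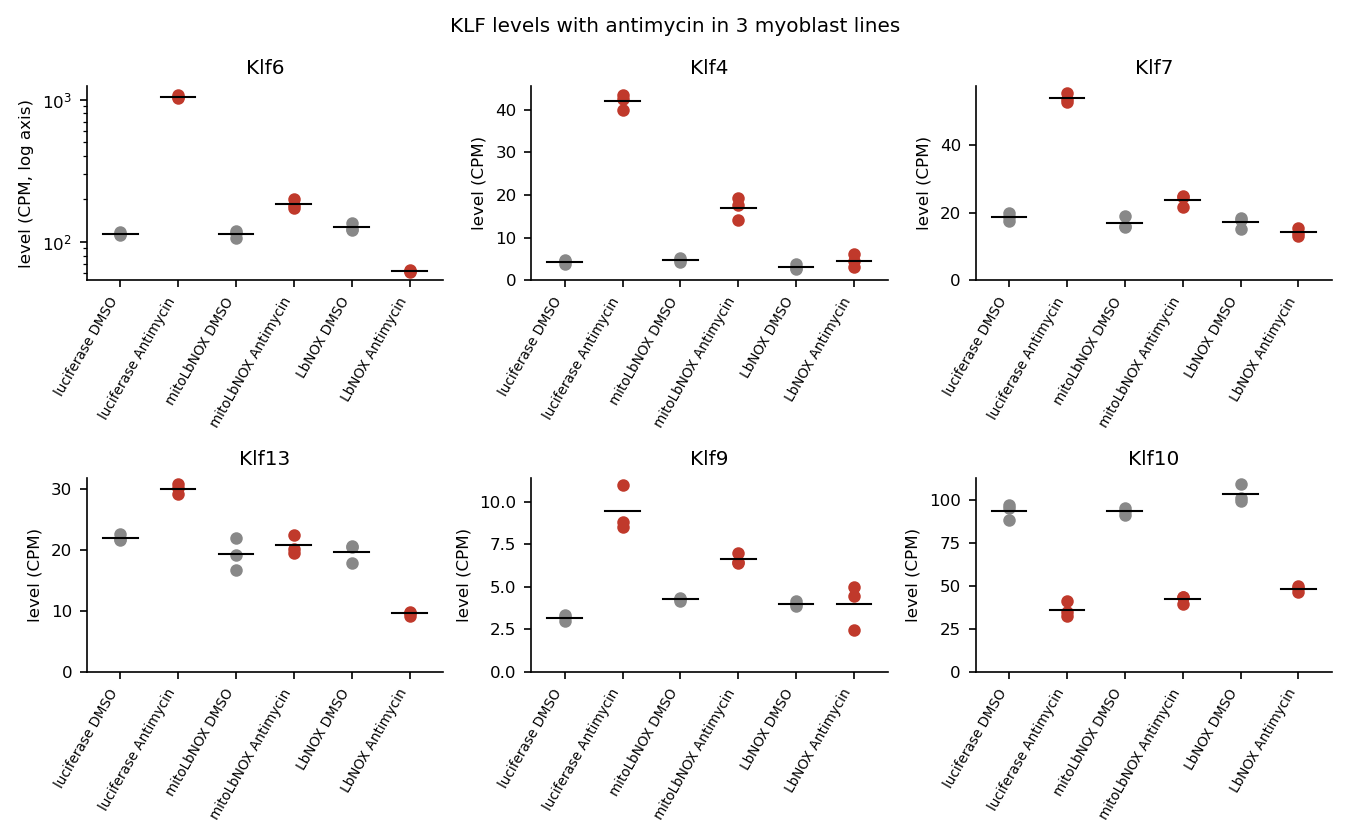
CPM of Klf6, Klf4, Klf7, Klf13, Klf9 and Klf10 in each library of luciferase, mitoLbNOX and LbNOX myoblasts with DMSO or antimycin (n = 3 each). Klf6 rises in the first 2 lines and falls in LbNOX myoblasts, whereas Klf10 is lower with antimycin in all 3 lines.

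Within each line, antimycin called 46.1% of genes and 5 of 9 members in LbNOX myoblasts, and 47.7% of genes and 7 of 9 members in mitoLbNOX myoblasts. In LbNOX myoblasts Klf10 fell by 1.05 ± 0.078 (adjusted p = 2.9e-12) and Klf13 by 1.00 ± 0.13 (1.14e-07) on the log2 scale. Klf4 was called there at 0.62 ± 0.21 (adjusted p = 0.0152) but not without the libraries numbered 1 (0.504). In mitoLbNOX myoblasts Klf4 rose by 1.87 ± 0.18 (adjusted p = 3.55e-10), Klf7 by 0.54 ± 0.11 (8.52e-05) and Klf5 by 0.41 ± 0.1 (0.00171), while Klf10 fell by 1.10 ± 0.079 (7.44e-13). Klf9 rose by 0.67 ± 0.18 (adjusted p = 0.00277), and its adjusted p was 0.0697 without the libraries numbered 2. The median over the 8 members without Klf15 was -0.23 in LbNOX and 0.48 in mitoLbNOX myoblasts, beside 0.03 and 0.01 over all genes. The summed proliferation genes were low with antimycin in both lines, at a mean of 750 CPM in LbNOX and 845 CPM in mitoLbNOX myoblasts, against 1383 and 1347 CPM with DMSO. Between DMSO and antimycin the summed myotube genes went from 18.3 to 35.5 CPM in LbNOX and from 19 to 62.6 CPM in mitoLbNOX myoblasts, the macrophage genes, mainly Cd68, from 0.919 to 4.49 and from 0.842 to 7.2 CPM, the adipocyte genes from 11.6 to 5.81 and from 12 to 9 CPM, and the myoblast genes from 439 to 487 and from 469 to 508 CPM. The LbNOX transgene itself had 2189 to 3084 counts per library with antimycin against 9805 to 13457 with DMSO, and in mitoLbNOX myoblasts it had 6152 to 8943 against 20419 to 24020. The part of these lists and of the transgene in the KLF responses was not tested.

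Piericidin in LbNOX and mitoLbNOX myoblasts moved Klf4 and Klf10, in calls that rested on single replicate numbers. In LbNOX myoblasts 8.87% of genes and 2 of 9 members passed. Klf4 had 5.01, 5.47 and 5.64 CPM against 2.69, 2.85 and 3.78 with DMSO (log2 fold change 0.83 ± 0.2, adjusted p = 0.00765), and Klf10 had 74.4, 86.2 and 69.4 against 109, 101 and 99.2 and fell by 0.40 ± 0.077 (0.000601). Both sets lay apart. Klf4 did not pass without the libraries numbered 1 or 2 (adjusted p = 0.136 and 0.105), nor Klf10 without those numbered 1 (0.0798). In mitoLbNOX myoblasts 11.2% of genes and 5 of 9 members passed, namely Klf4 (0.63 ± 0.18, adjusted p = 0.0225), Klf5 (0.39 ± 0.1, 0.0107), Klf13 (0.38 ± 0.11, 0.0261), Klf10 (fell by 0.32 ± 0.076, 0.0042) and Klf15, which had few counts. Without the libraries numbered 1 none of the first 4 passed, with adjusted p-values of 0.202 for Klf4, 0.102 for Klf5, 0.341 for Klf13 and 0.189 for Klf10. Without those numbered 2 the values were 0.296 for Klf4 and 0.0696 for Klf5, and without those numbered 3 they were 0.106 for Klf5 and 0.222 for Klf13. Klf6 with piericidin had 105, 123 and 116 CPM in LbNOX myoblasts and 98.3, 105 and 103 in mitoLbNOX myoblasts, with log2 fold changes of -0.12 ± 0.052 (adjusted p = 0.151) and -0.13 ± 0.052 (0.111). By edgeR, 0 of 9 members differed in their piericidin response between LbNOX and mitoLbNOX myoblasts (0.492% of genes passed), 1 of them at an unadjusted p under 0.05 and 0 by DESeq2. From DMSO to piericidin the summed proliferation genes went from 1383 to 1176 CPM in LbNOX and from 1347 to 1127 CPM in mitoLbNOX myoblasts, the myotube genes from 18.3 to 33.8 and from 19 to 32.9 CPM, and the macrophage genes from 0.919 to 1.71 and from 0.842 to 1.85 CPM. The part of these lists was not tested.

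In NDI1 myoblasts, piericidin called 0 of 9 members by edgeR, 0 at an unadjusted p under 0.05 and 0 by DESeq2, and 0.00835% of genes, that is 1 gene. Klf6 had 122 and 113 CPM with piericidin and 121 and 122 with DMSO, and Klf10 had 87.7 and 83.1 against 90.5 and 91.7. Klf4 had 4.61 and 5.82 CPM against 4.67 and 5.23. The Klf10 values lay just below those with DMSO, and the groups of Klf6 and Klf4 overlapped. The log2 fold changes were -0.01 ± 0.063 for Klf6 (adjusted p = 0.974), 0.10 ± 0.23 for Klf4 (0.93) and -0.06 ± 0.093 for Klf10 (0.872).

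The transgenes alone moved no member past the threshold in DMSO libraries. By edgeR, 0 of 9 members were called for LbNOX against luciferase (2.68% of genes passed), 0 for mitoLbNOX (1.77%) and 0 for NDI1 (4.61%). At an unadjusted p under 0.05 there were 2, 1 and 2 members, and DESeq2 called 0 in each. These 3 comparisons share the luciferase DMSO libraries, which also served the comparisons that chose the genes. Klf6 stood at 0.15 ± 0.052 log2 units in LbNOX (adjusted p = 0.133), 0.00 ± 0.052 in mitoLbNOX (0.998) and 0.08 ± 0.058 in NDI1 myoblasts (0.576).

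Chloramphenicol over 48 hr lowered Klf10. In luciferase myoblasts Klf10 had 61.9 and 54.8 CPM against 88.2 and 99.3 with 48 hr of DMSO and fell by 0.63 ± 0.084 on the log2 scale (adjusted p = 0.0023), the only member of 8 tested that passed, beside 8.45% of genes. In LbNOX myoblasts it had 85.1 and 80 CPM against 113 and 118 and fell by 0.46 ± 0.083 (adjusted p = 0.0444), again 1 of 8 members, beside 0.931% of genes. Both pairs lay apart. The LbNOX call was lost when any 1 of the 8 libraries of this experiment was left out, with log2 fold changes from -0.5 to -0.41. Each such fit left 1 library in a group and took its spread from the other groups. Klf4 had 9.8 and 8.4 CPM against 5.19 and 4.61 in luciferase myoblasts and did not pass (0.95 ± 0.25, adjusted p = 0.0551). Klf6 had 110 and 104 CPM against 101 and 107 (0.09 ± 0.073, adjusted p = 0.543). By edgeR, 0 of 8 members differed in response between LbNOX and luciferase myoblasts (0.53% of genes passed), with 2 at an unadjusted p under 0.05 and 0 by DESeq2. From DMSO to chloramphenicol the summed proliferation genes went from 1454 to 1224.5 CPM in luciferase and from 1409 to 1352 CPM in LbNOX myoblasts, and the myoblast genes from 583 to 527 and from 476 to 427 CPM, and their part was not tested.

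In untransduced myotubes Klf6 passed with oligomycin and not with piericidin or antimycin, and the difference between these responses was not tested. Klf6 had 97.3, 103 and 107 CPM with DMSO, 106, 100 and 106 with piericidin, 116, 115 and 105 with antimycin and 126, 128 and 121 with oligomycin. Oligomycin libraries lay above all DMSO libraries, and the other groups overlapped them. The log2 fold changes were 0.03 ± 0.058 with piericidin (adjusted p = 0.866), 0.14 ± 0.057 with antimycin (0.131) and 0.29 ± 0.057 with oligomycin (0.000322). Piericidin called 8.99% of genes and 2 of 8 members, antimycin 12.9% and 3 of 8, and oligomycin 33.3% and 4 of 8, all against the same DMSO libraries. Klf4 had 8.54, 8.05 and 8.51 CPM with DMSO and 21.5, 22.8 and 23.3 with oligomycin, far above, and rose by 1.43 ± 0.14 (adjusted p = 2.04e-08). Klf5, which promotes muscle differentiation, fell with antimycin by 0.28 ± 0.065 (adjusted p = 0.00366, and 0.0659 without the libraries numbered 2).

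Klf9 had 6.48, 4.52 and 8.32 CPM in the myotube DMSO libraries and 12.4, 10.5 and 8.62 with piericidin, 11.9, 13.2 and 8.99 with antimycin and 11.1, 12.8 and 10 with oligomycin. Each inhibitor group lay above the DMSO libraries. The log2 fold changes were 0.69 ± 0.2 (adjusted p = 0.0261), 0.84 ± 0.19 (0.00398) and 0.82 ± 0.19 (0.00181). Without the libraries numbered 1, the adjusted p was 0.302 with piericidin and 0.0901 with antimycin, and without those numbered 2 it was 0.347 with piericidin, 0.262 with antimycin and 0.137 with oligomycin.

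Klf10 was lower with each of the 3 inhibitors in myotubes. The DMSO libraries had 87.8, 105 and 107 CPM, piericidin 60.4, 59.7 and 65.3, antimycin 62.2, 62.7 and 59.3, and oligomycin 45.5, 50.2 and 44.4 CPM. No inhibitor library reached the lowest DMSO library, and oligomycin was lowest. Klf10 fell by 0.69 ± 0.069 with piericidin (adjusted p = 1.54e-07), by 0.69 ± 0.068 with antimycin (6.46e-08) and by 1.09 ± 0.069 with oligomycin (4.89e-12). With BAM15 the values were 92.1, 90.6 and 95.5 CPM and with 5% oxygen 114, 111 and 106 CPM, which overlapped DMSO in both cases (-0.10 ± 0.067, adjusted p = 0.287, and 0.14 ± 0.066, adjusted p = 0.133).

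Klf10 was higher when a second condition was added to oligomycin. Compared with oligomycin alone, Klf10 had 59.9, 61.5 and 66 CPM with piericidin added, 93.6, 94.3 and 89.7 with BAM15 added and 82.6, 93.2 and 90.1 in 5% oxygen, all above the oligomycin libraries. The log2 differences were 0.41 ± 0.07 (adjusted p = 9.98e-05), 0.98 ± 0.069 (5.02e-11) and 0.94 ± 0.069 (9.69e-11). These comparisons share the oligomycin libraries and called 20.9%, 26.1% and 33.3% of genes and 4, 2 and 4 of 8 members. Within 5% oxygen, oligomycin called 4.26% of genes and 1 of 8 members, Klf10, which fell by 0.30 ± 0.067 (adjusted p = 0.00823). That call was lost without the libraries numbered 1 (0.162) or 2 (0.092) and when only these 2 groups were fitted (0.051). The summed proliferation genes had a mean of 148 CPM with oligomycin alone, 152 with piericidin added, 131 with BAM15 added and 29.1 in 5% oxygen, and the macrophage genes 4.55, 3.66, 3.53 and 2.61 CPM, and their part in these values and those of the other members was not tested.

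**Figure D3:**
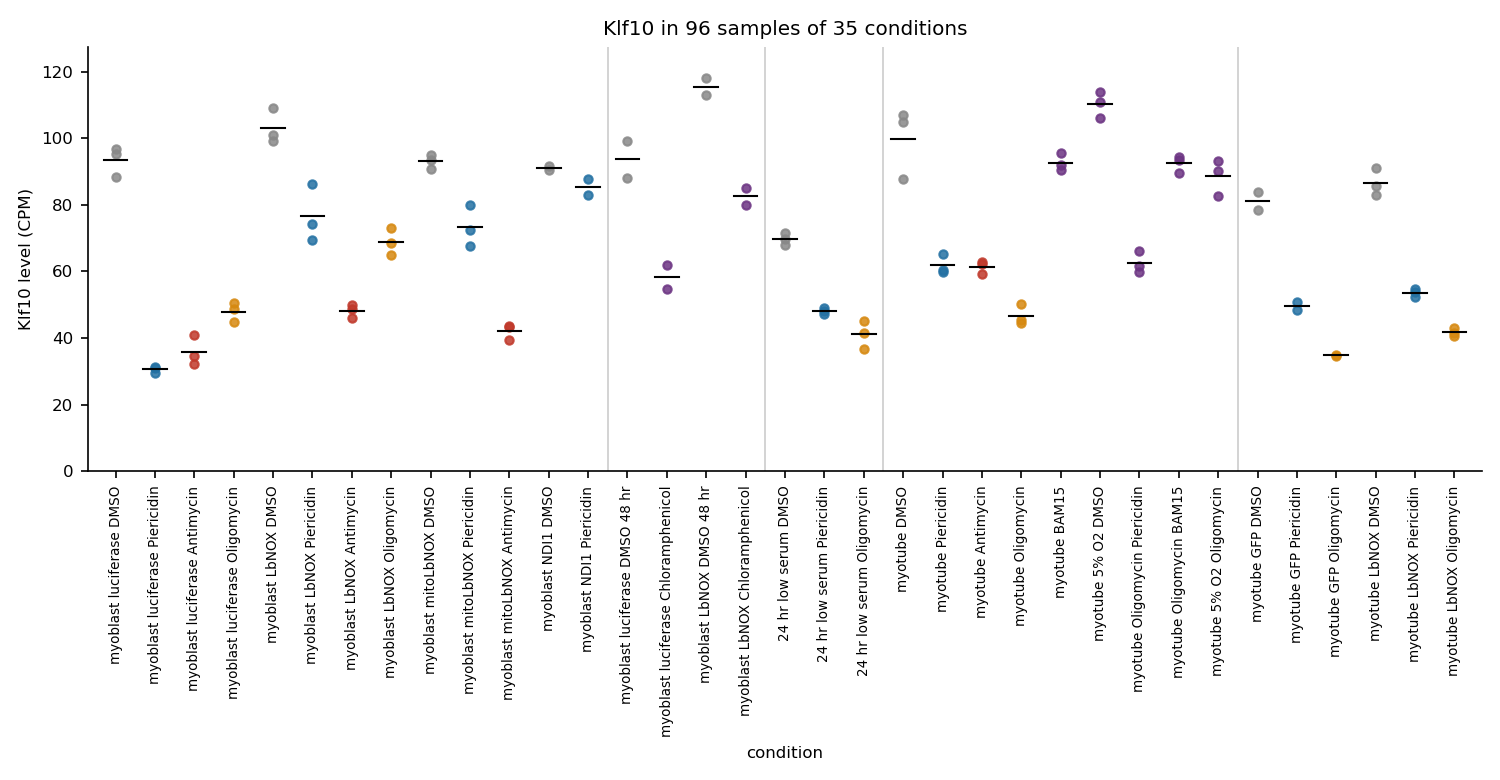
Klf10 in CPM (linear axis) in each of 96 libraries, grouped by the 35 conditions, with a black line at each condition mean and the same colours as for Klf6. Piericidin, antimycin and oligomycin given alone sit below their own DMSO libraries in every state, and myotubes with oligomycin and BAM15 sit at 89.7 to 94.3 CPM.

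The other members responded unevenly when conditions were added to oligomycin. Klf6 had 97.3, 104 and 105 CPM with piericidin added, below all oligomycin libraries, and fell by 0.30 ± 0.057 (adjusted p = 0.000393). Klf4 had 13.7, 15.8 and 15.1 CPM, also below, and fell by 0.61 ± 0.14 (adjusted p = 0.00191), and Klf5 fell by 0.28 ± 0.065 (0.00258, and 0.0745 without the libraries numbered 2). With BAM15 added, Klf6 had 107, 115 and 115 CPM and fell by 0.16 ± 0.057 (adjusted p = 0.0419), a call lost without the libraries numbered 1 (0.327) or 2 (0.187). In 5% oxygen Klf4 had 17.4, 15.2 and 17.6 CPM and fell by 0.42 ± 0.14 against oligomycin alone (adjusted p = 0.0202), a call lost without the libraries numbered 1 (0.0701) or 2 (0.121). Klf5 rose there by 0.23 ± 0.064 (adjusted p = 0.00853) and Klf3 by 0.23 ± 0.086 (0.0478). Without any 1 replicate number neither passed, with adjusted p-values from 0.0602 to 0.0975 for Klf5 and from 0.0729 to 0.473 for Klf3.

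In myotubes BAM15 and 5% oxygen raised Klf3, Klf4, Klf6 and Klf7, which piericidin and antimycin did not move past the threshold, although the difference between these responses was not tested. BAM15 called 25.4% of genes and 6 of 8 members, and 5% oxygen called 22.1% of genes and 4 of 8 members. Klf6 had 134, 134 and 133 CPM with BAM15 (0.39 ± 0.057, adjusted p = 1.79e-05) and 121, 120 and 123 CPM in 5% oxygen (0.24 ± 0.058, 0.0029), all above DMSO. Klf4 had 13.2, 17.5 and 17.7 CPM with BAM15 (0.95 ± 0.15, adjusted p = 2.63e-05) and 10.5 to 15.3 in 5% oxygen (0.61 ± 0.15, 0.00331). Klf7 rose by 0.52 ± 0.11 with BAM15 (adjusted p = 0.00132) and by 0.35 ± 0.11 in 5% oxygen (0.0263). Klf3, which is also a regulator of muscle genes, had 45.4, 49.1 and 51.8 CPM in 5% oxygen against 31.4, 33.3 and 33.9, all above, and rose by 0.57 ± 0.086 (adjusted p = 1.62e-05). The rise of Klf3 with BAM15 (0.25 ± 0.087, adjusted p = 0.0345) was lost without any 1 replicate number (0.181, 0.116 and 0.151), as was that of Klf7 in 5% oxygen (0.0858, 0.221 and 0.148). Without the libraries numbered 1 and 2, in turn, the adjusted p with BAM15 was 0.0605 and 0.332 for Klf5, which fell by 0.19 ± 0.065 (0.031), and 0.085 and 0.311 for Klf9, which rose by 0.60 ± 0.19 (0.0255). In 5% oxygen it was 0.105 and 0.0569 for Klf6, and Klf4 did not pass without the libraries numbered 2 (0.123). The summed proliferation genes had a mean of 26.4 CPM in 5% oxygen against 151 with DMSO, and 133 with BAM15. The summed myotube genes had means of 10761 CPM with DMSO, 12569 in 5% oxygen and 13215 with BAM15, and 12259 to 13083 CPM with the 3 inhibitors. The part of both lists in these values was not tested.

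Transduced myotubes gave a second set of oligomycin and piericidin libraries with DMSO libraries of their own. Oligomycin called 25.9% of genes and 7 of 10 members in GFP myotubes, and 32% of genes and 4 of 10 members in LbNOX myotubes. Klf6 had 139 and 138 CPM against 104 and 92.8 in GFP myotubes (0.48 ± 0.066, adjusted p = 8.59e-05) and 146, 144 and 134 against 100, 97.8 and 101 in LbNOX myotubes (0.49 ± 0.054, 6.76e-06). Klf4 had 19.6 and 22 CPM against 9.58 and 7.85 (1.24 ± 0.18, adjusted p = 0.000102), and 24.4, 23.8 and 25.9 against 7.93, 11.1 and 8.97 (1.39 ± 0.14, 2.84e-06). Klf10 had 34.7 and 34.9 CPM against 83.8 and 78.5 and fell by 1.23 ± 0.07 (adjusted p = 9.73e-09), and in LbNOX myotubes it had 41.4, 42.9 and 40.7 against 85.6, 91 and 83 and fell by 1.07 ± 0.056 (2.37e-09). In these 3 genes and both lines the oligomycin and DMSO libraries lay apart. In GFP myotubes Klf9 (0.85 ± 0.28, adjusted p = 0.0353), Klf3 (0.31 ± 0.1, 0.038) and Klf5 (0.26 ± 0.074, 0.0185) were also called. These calls were lost without the libraries numbered 1 or 2. That left 1 library per GFP group, with the spread taken from the other groups. The log2 fold changes were then 0.78, 0.25 and 0.27 without those numbered 1, and 0.93, 0.39 and 0.26 without those numbered 2. Without those numbered 3, the adjusted p of Klf3 was 0.0569. Klf15 was called in both. From DMSO to oligomycin the summed myotube genes went from a mean of 9879.9 to 11349.8 CPM in GFP and from 10121 to 11381 CPM in LbNOX myotubes, and the myoblast genes from 4058 to 3444 and from 3920.3 to 3243 CPM. The LbNOX transgene had 109211 to 153436 counts per library with oligomycin against 66817 to 79539 with DMSO in LbNOX myotubes, and eGFP had 88346 to 97928 against 66209 to 79228 in GFP myotubes. The part of these values in the KLF responses was not tested.

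Piericidin called 1 of 10 members, Klf10, in both transduced lines, beside 3.09% of genes in GFP and 6.78% in LbNOX myotubes. Klf10 had 48.4 and 50.7 CPM in GFP myotubes and fell by 0.72 ± 0.068 (adjusted p = 3.81e-05, and 0.0567 when only these 2 groups were fitted), and it had 52.2, 54.8 and 53.9 CPM in LbNOX myotubes and fell by 0.70 ± 0.055 (2.51e-06). The summed myotube genes had a mean of 12362 CPM with piericidin in GFP and 12783 CPM in LbNOX myotubes, above DMSO, and their part was not tested. LbNOX against GFP in DMSO libraries called 0.0242% of genes and by edgeR 0 of 10 members, with 2 at an unadjusted p under 0.05 and 0 by DESeq2. The oligomycin response of LbNOX minus GFP myotubes called 0% of genes and 0 of 10 members by edgeR, with 525 genes and 2 members at an unadjusted p under 0.05 and 1 gene and 0 members by DESeq2. The interaction for Klf6 was 0.01 ± 0.086 (adjusted p = 0.998), and for Klf10 it was 0.17 ± 0.089 (0.973).

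After 24 hr in low serum, piericidin called 2.75% of genes and 1 of 9 members, and oligomycin 20.7% of genes and 5 of 9. Klf10 had 69.7, 71.5 and 68 CPM with DMSO, 48.1, 49.1 and 47.1 with piericidin and 36.8, 45.2 and 41.6 with oligomycin, in 3 ranges that did not overlap. It fell by 0.53 ± 0.076 with piericidin (adjusted p = 0.00421) and by 0.73 ± 0.077 with oligomycin (4.04e-05). Klf4 had 17.5, 10.9 and 14.8 CPM with DMSO and 31.6, 27 and 28.9 with oligomycin, all above, and rose by 1.04 ± 0.15 (adjusted p = 0.000508). Klf6 had 116, 115 and 119 CPM with DMSO and 121, 123 and 133 with oligomycin, also all above, but the log2 fold change of 0.13 ± 0.051 did not pass (adjusted p = 0.102). The piericidin call of Klf10 was lost without any 1 replicate number (adjusted p = 0.0957, 0.0747 and 0.089). With oligomycin, Klf9 (0.62 ± 0.15, adjusted p = 0.0105), Klf7 (0.34 ± 0.1, 0.0333) and Klf13 (0.32 ± 0.1, 0.0483) were called, and the same held for them, with adjusted p-values from 0.0862 to 0.106 for Klf9, from 0.0711 to 0.219 for Klf7 and from 0.0558 to 0.332 for Klf13. The summed proliferation genes had a mean of 247 CPM with DMSO, 210 with piericidin and 190 with oligomycin, and the myoblast genes 2299, 2252 and 1945 CPM. Their part in the KLF values was not tested.

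**Figure D4:**
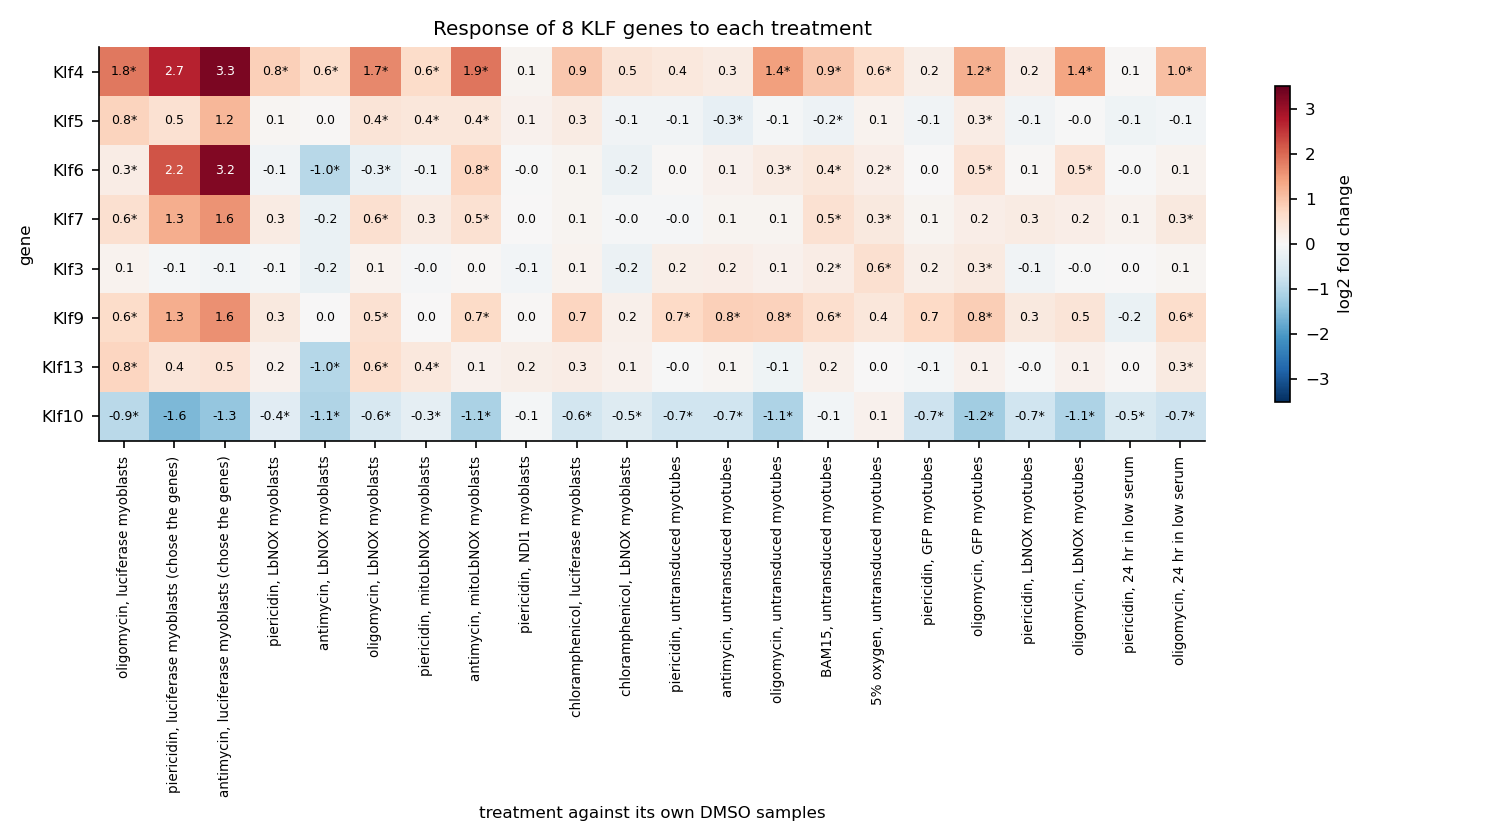
Heat map of log2 fold changes of 8 members (rows, without Klf2 and Klf15) in 22 treatment comparisons against DMSO (columns), with red for higher, blue for lower and an asterisk where the edgeR test passed. The 2 columns whose values chose the genes carry no asterisk, and the row of Klf10 is blue in most columns while that of Klf4 is red.

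Counted over the 20 tested comparisons of a treatment with DMSO, which fall into 10 sets with DMSO libraries of their own, Klf10 was called lower in 17 comparisons and higher in 0. Those 17 came from 9 of the 10 sets, and 13 of them held when replicates were left out in turn. Oligomycin within 5% oxygen is not among the 20, since its control group is itself one of the treatments counted, and Klf10 was called lower there too. The exceptions were piericidin in NDI1 myoblasts, and BAM15 and 5% oxygen in untransduced myotubes. Klf4 was called higher in 12 comparisons from 7 sets and lower in 0, and 8 of the 12 held in the same way. Klf9 was called higher in 9 from 6 sets, but all 9 of these calls were lost when some replicate was left out. Klf7 was called higher in 6 from 5 sets, of which 3 held. Klf6 was called higher in 7 comparisons from 5 sets and lower in 2, both in LbNOX myoblasts, and 8 of the 9 held. Its antimycin calls in LbNOX and mitoLbNOX myoblasts are among them and are no independent support, given how the genes were chosen. Klf5 was higher in 5 and lower in 2, Klf13 higher in 4 and lower in 1, and Klf3 higher in 3 and lower in 0, of which 2, 3 and 1 held. Comparisons within a set share their DMSO libraries.

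The states were compared in DMSO libraries, of which the luciferase ones also served the comparisons that chose the genes. Against luciferase myoblasts, cells after 24 hr in low serum called 63.6% of genes and 6 of 10 members, and day 4 myotubes called 69.4% of genes and 9 of 10 members. Myotubes against 24 hr cells called 35.6% of genes and 7 of 10. Klf2 and Klf15 passed the count filter here only through groups where they are high, and without them 5 of 8, 7 of 8 and 7 of 8 members were called. The first of these is about the share of all genes. Klf5 rose at each step, from 28.7, 25.5 and 27.8 CPM in myoblasts to 49.1, 49.1 and 53.5 after 24 hr and 74, 79.5 and 82.1 in myotubes, by 0.89 ± 0.074 (adjusted p = 1.4e-11) and then by 0.67 ± 0.071 (1.21e-08) on the log2 scale. Klf3 had 18.8, 21 and 16.3 CPM in myoblasts, 48.5, 45.1 and 44.7 after 24 hr and 31.4, 33.3 and 33.9 in myotubes, and Klf4 had 4.55, 4.8 and 3.8, then 17.5, 10.9 and 14.8, then 8.54, 8.05 and 8.51 CPM. Both were highest after 24 hr, with no overlap between the states. Klf3 rose by 1.30 ± 0.097 (adjusted p = 1.28e-12) and then fell by 0.45 ± 0.094 (0.000338), and Klf4 rose by 1.71 ± 0.15 (4.05e-11) and then fell by 0.75 ± 0.14 (9.76e-05). Klf10 went the other way, lowest after 24 hr, and fell by 0.42 ± 0.081 (adjusted p = 5.64e-05) and then rose by 0.55 ± 0.082 (3.59e-06). Klf9 rose by 1.03 ± 0.2 to 24 hr (adjusted p = 5.65e-05) and Klf13 by 0.59 ± 0.091 from 24 hr to myotubes (8.67e-06).

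Klf6 and Klf7 differed little between the states. Klf6 in myotubes stood at -0.11 ± 0.046 against myoblasts (adjusted p = 0.0359, and 0.465 without the libraries numbered 1) and at -0.15 ± 0.046 against 24 hr cells (0.00985, and 0.184 without those numbered 1). With DESeq2 size factors the first of these did not pass (0.0871). Klf7 fell by 0.34 ± 0.098 from myoblasts to myotubes (adjusted p = 0.00297) and by 0.26 ± 0.099 from 24 hr cells (0.0415, and 0.126 and 0.231 without the libraries numbered 1 and 2). With well position on the plate as a covariate, neither gene passed in either comparison. Klf3 between 24 hr cells and myotubes did not pass with it either (0.071). All 24 hr libraries and the luciferase DMSO libraries came from outer wells, and the untransduced myotube DMSO libraries from inner wells. In DMSO libraries, myotubes against either other state thus cannot be told apart from well position. The covariate was set by the other groups of the fit. This holds for all members.

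**Figure D5:**
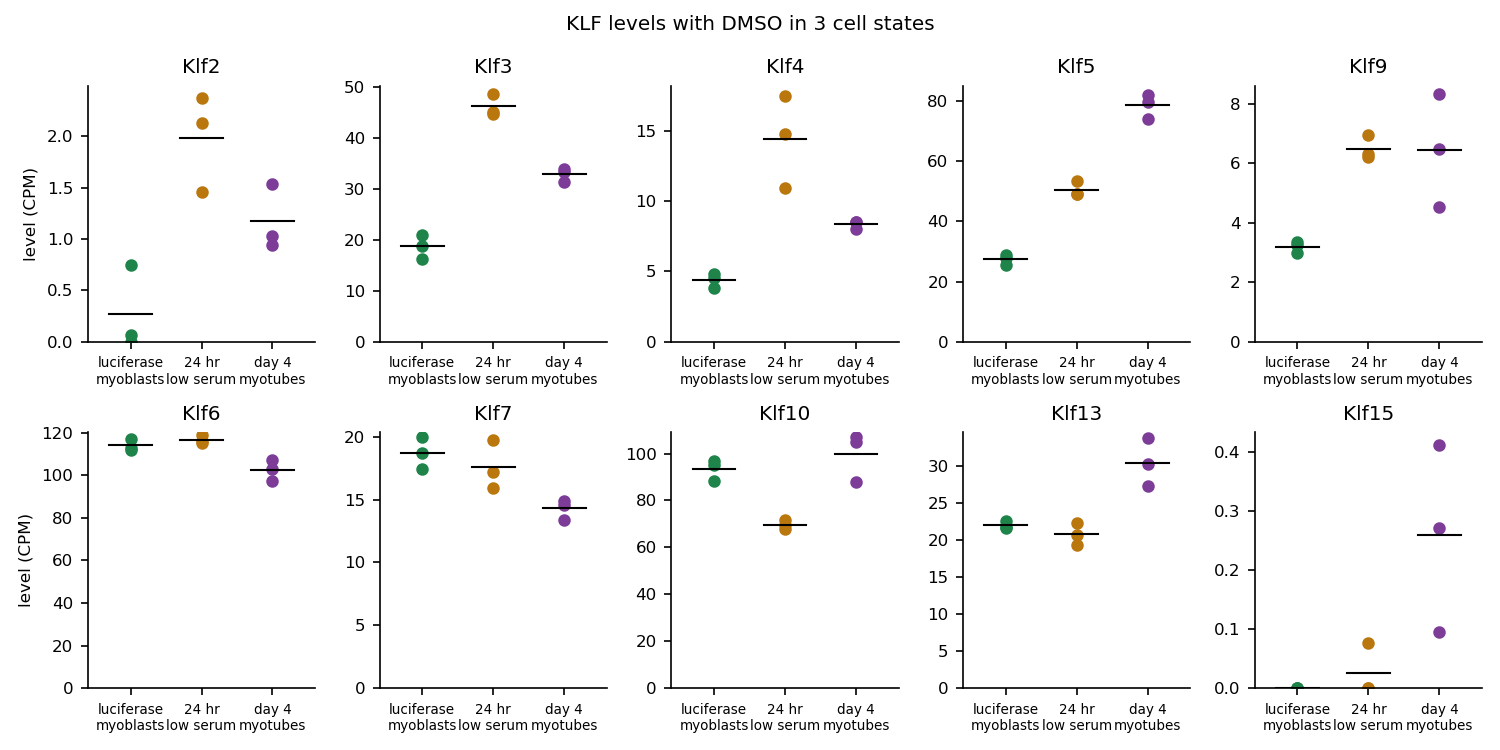
CPM of the 10 members in each DMSO library of luciferase myoblasts, cells after 24 hr in low serum and untransduced day 4 myotubes (n = 3 each), with a line at each mean. Klf5 climbs across the states, Klf3 and Klf4 peak after 24 hr, and Klf6 stays between 97.3 and 119 CPM.

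The oligomycin response was compared between the states, again with the luciferase DMSO libraries that served the choice of the genes. The interactions called 29% of genes and 3 of 8 members for myotubes minus luciferase myoblasts, and 24.9% of genes and 3 of 8 members for 24 hr cells minus luciferase myoblasts, Klf2 and Klf15 left aside, shares near those of all genes. Klf5 rose with oligomycin in luciferase myoblasts, whereas it had 73.9, 77 and 74.7 CPM with oligomycin against 74, 79.5 and 82.1 with DMSO in myotubes, and 44.2, 51 and 43.5 against 49.1, 49.1 and 53.5 after 24 hr. The difference between responses was -0.84 ± 0.1 log2 units for myotubes (adjusted p = 3.18e-07) and -0.85 ± 0.1 for 24 hr cells (4.18e-07), both minus luciferase myoblasts. Klf13 differed by -0.90 ± 0.13 in myotubes (adjusted p = 3.37e-06) and by -0.41 ± 0.13 after 24 hr (0.0201, and 0.117 and 0.171 without the libraries numbered 1 and 3). Klf7 differed by -0.47 ± 0.14 in myotubes (adjusted p = 0.0104, and 0.106 and 0.107 without those numbered 1 and 2), and Klf4 by -0.76 ± 0.2 after 24 hr (0.0047, and 0.0548 and 0.097 without those numbered 1 and 3). The Klf5 differences and that of Klf13 in myotubes passed whichever replicate was left out. For Klf10 the differences were -0.14 ± 0.12 (adjusted p = 0.418) and 0.26 ± 0.12 (0.117), and for Klf6 they were 0.03 ± 0.065 (0.745) and -0.09 ± 0.064 (0.317).

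Klf15, a regulator of amino acid catabolism in muscle, was counted in few libraries. It passed the count filter among myoblasts only through the luciferase piericidin, luciferase oligomycin and LbNOX oligomycin groups, among transduced myotubes only through GFP with oligomycin, and not among untransduced myotubes or 24 hr cells, so its calls lend no weight to the counts of members. Without it, 7 of 8 members were called with oligomycin in LbNOX myoblasts (35.2% of all genes), 4 of 8 with antimycin there (46.1%), 4 of 8 with piericidin in mitoLbNOX myoblasts (11.2%) and 6 of 8 with antimycin there (47.7%). Also without Klf2, 6 of 8 were called with oligomycin in GFP myotubes (25.9%) and 3 of 8 in LbNOX myotubes (32%). The counts with antimycin in LbNOX myoblasts and with oligomycin in LbNOX myotubes are near the shares of all genes. In luciferase, LbNOX and mitoLbNOX myoblasts all 3 DMSO libraries were at 0. Oligomycin gave 2.16, 2.69 and 3 CPM in luciferase and 1.64, 2.92 and 2.72 CPM in LbNOX myoblasts, which was at least 10.2-fold and 9.87-fold higher than a floor of 3 counts per DMSO library. Antimycin in mitoLbNOX myoblasts gave 1.62, 2.78 and 3.15 CPM, at least 9.91-fold higher. Piericidin there gave 0.174, 0.952 and 0.0867 CPM, with 13 of its 16 counts in 1 library, and no bound is given. Piericidin and antimycin in luciferase myoblasts, which chose the genes, gave 1.82, 3.53 and 3.06 and 0.197, 0.907 and 0.346 CPM. Antimycin in LbNOX myoblasts gave 5 counts in 3 libraries, under the floor.

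In myotubes the summed counts of Klf15 were 37 with oligomycin against 8 with DMSO, a ratio of 4.4 (95% interval 2.02 to 10.9, counting error only) after scaling for depth. In GFP myotubes 34 counts against 4 gave 7.96 (2.84 to 30.9), in LbNOX myotubes 69 against 2 gave 30.4 (8.09 to 256), and after 24 hr in low serum 33 against 1 gave 38.5 (6.44 to 1565). With piericidin the ratios had intervals that held 1 in all of these. No p-value of Klf15 is given, since the groups that let it pass the filter were those where it was high, and with 0 counts in the luciferase DMSO libraries its difference in response between states has no defined size.

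Klf2, best known from endothelium and T cells, had the lowest levels of the remaining members. It did not pass the count filter among 10 hr or 48 hr myoblasts or untransduced myotubes, passed it among transduced myotubes only through GFP with piericidin, and passed it in the low-serum fits only through 24 hr DMSO. It had 0.743, 0.0706 and 0 CPM in luciferase myoblasts with DMSO, 2.13, 2.37 and 1.46 after 24 hr and 0.946 to 1.54 CPM in myotubes. The myoblast libraries lay below the others, which overlapped each other. Since Klf2 passed the filter through the group where it was highest, no test between the states is given. Of 6 treatment comparisons that tested Klf2, none called it, but they rest on the same filter and carry no weight. With oligomycin in GFP myotubes it had 0.41 and 0.53 CPM against 1.05 and 1.72, and the groups lay apart.

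Other genes of the family and its circuit were taken from lists of 16 further KLF and SP factors, 11 cofactors and ubiquitin ligases, 12 upstream regulators and 12 reported targets. The lists were set with earlier results of these data known, so their counts are a description and no independent support. With oligomycin in luciferase myoblasts, where 50.8% of all genes passed, 4 of 9 further factors tested did so, 2 up and 2 down, namely Sp4 (-0.88), Klf8 (0.82), Klf11 (0.69), a close relative of Klf10, and Sp1 (-0.38). Of the cofactors 3 of 11 passed, with Kat2b, an acetyltransferase, at -1.65 and Wwp1, a ubiquitin ligase, at 1.14, and 6 of 8 targets passed, with Thbd, the thrombomodulin gene that Klf2 and Klf4 induce, at 1.89, Smad7, an inhibitor of TGF-β signaling, at 0.88 and Prodh, a proline-degrading enzyme and Klf15 target, at 0.74. With antimycin in mitoLbNOX myoblasts, where 47.7% of all genes passed, 5 of 9 further factors (Sp4 -1.80, Klf11 1.04), 6 of 11 cofactors (Kat2b -1.20), 4 of 10 upstream genes (Srf 0.74) and 5 of 8 targets (Thbd 2.17) passed. In LbNOX myoblasts, at 46.1% of all genes, the same inhibitor gave 6 of 9, 5 of 11, 3 of 10 and 7 of 8, with Cdkn1a, a cell cycle inhibitor that Klf4 and Klf6 induce, at 1.89. The study names Cdkn1a as a p53 effector in the signature of these cells, and the part of any factor in its level was not tested. The antimycin interaction between these lines called Thbd (-1.48), Cdkn1a (1.33) and Klf8 (-1.51) among others.

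In myotubes oligomycin, which called 33.3% of all genes, called 8 of 11 upstream genes tested, 3 up and 5 down. Those with the largest changes on the log2 scale were Tgfbr2, a TGF-β receptor gene, at -1.44, the signal transducer Smad3 at -1.03, the muscle factor Mef2d at -0.61 and Smad4 at 0.53. With BAM15, at 25.4% of all genes, 6 of 11 passed, with Tgfbr2 at -1.63, Smad3 at -0.99, Mef2a at -0.61 and Nr3c1, the glucocorticoid receptor gene, at 0.47. Fbxw7, which marks several KLFs for degradation, stood at -1.58 with oligomycin in untransduced, -1.60 in GFP and -1.53 in LbNOX myotubes. Of the targets 4 of 11 passed with oligomycin, with Slc2a4, the insulin-responsive glucose transporter, at 1.5 and Smad7 at 1.12. In 5% oxygen, at 22.1% of all genes, 1 of 11 upstream genes and 4 of 11 targets passed. Over these comparisons the median log2 fold change of a list ran from -0.63, for further factors with antimycin in LbNOX myoblasts, to 0.62, for targets there, and the median of all genes stayed between -0.02 and 0.03.

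Genes whose pattern was most like that of a member were ranked by Pearson correlation of mean log2(CPM + 1) over the 35 conditions, among 9638 genes with a mean count of at least 50. The conditions share DMSO treatment, cell states and libraries, so the values describe these data and carry no test. For Klf6 the 5 closest genes were Banp (r = 0.915), Zfp715 (0.904), Lrrc41 (0.900), Clk4 (0.895) and Cttnbp2nl (0.886), and none of these was among the 5 closest by Spearman correlation. For Klf4 they were Tgif1 (0.948), Ldlrad3 (0.948), Ttc17 (0.935), Usf1 (0.934) and Arhgef2 (0.934), and for Klf10 they were Rnf145 (0.901), Tbc1d8b (0.896), Pcyt1b (0.868), Osbpl3 (0.837) and Gper1 (0.837), of which 3 and 4 were also closest by Spearman correlation. Klf3 was closest to Ankrd2 (0.969), Klf5 to Samd8 (0.948), Klf7 to Stac2 (0.914), Klf9 to Prune2 (0.917) and Klf13 to Arih2 (0.901). Among the members themselves the highest values were 0.84 for Klf5 with Klf9, 0.82 for Klf6 with Klf7 and 0.81 for Klf3 with Klf5, and the lowest was -0.69 for Klf4 with Klf10.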

How the data were processed

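The authors deposited estimated counts per gene, made with kallisto 0.44 (reads from bcl2fastq 2.20.0.422) on mouse transcripts of GRCm38 (mm10 in the submitters' notes), summed to genes and over sequencing runs, from Smart-seq2 polyA libraries that are not strand-specific. The values were whole numbers and were used as deposited. Libraries were grouped by the labels into 35 conditions. Genes that reached 16 counts in all replicates of 1 or more conditions of a fit were tested with edgeR 4.0.16 (R 4.3.3, limma 3.58.1), with TMM scaling, the quasi-likelihood F test, Benjamini-Hochberg adjustment over all genes tested in a comparison and a threshold of 0.05. Fits covered 10 hr myoblasts, 48 hr myoblasts, untransduced myotubes, transduced myotubes, 24 hr low-serum cells, and luciferase myoblasts, 24 hr cells and untransduced myotubes together. The SE of a log2 fold change is its size divided by the square root of F. Levels are CPM after TMM scaling over 96 libraries, and intervals and floors (3 counts per library) cover counting error only.

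Tests with edgeR were checked on simulated counts. Alternatives were DESeq2 1.42.0 size factors and Wald test, no count filter, only the groups compared, well position, a replicate block and leaving out replicates. Same-numbered replicates showed little shared deviation on average (mean correlation from -0.0481 to 0.0583 between fits), although single pairs ran from -0.42 to 0.454. No 2 replicates had identical counts. All 10 members were named, and in a comparison at most 4 genes of each further list, those called with the largest changes. The members and lists were chosen with earlier results of these data known.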

Additional observations from a re-analysis of the deposited data

Results flagged for a closer look

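For 13 results, the response of a KLF gene to 1 treatment differed between lines or states by an interaction term in edgeR, given in log2 units with its adjusted p. With antimycin, LbNOX minus mitoLbNOX myoblasts gave -1.73 for Klf6 (adjusted p = 2.29e-17), -1.25 for Klf4 (0.000704), -1.15 for Klf13 (5.17e-06) and -0.77 for Klf7 (0.000246). The Klf6 value is a description if these lines also entered the choice of the genes. With oligomycin, LbNOX minus luciferase myoblasts gave -0.52 for Klf6 (adjusted p = 1.4e-05) and 0.40 for Klf10 (0.0196). The Klf10 value did not pass without any 1 replicate number (adjusted p = 0.162, 0.0843 and 0.145). Klf6 fell with oligomycin in 3 of 3 LbNOX libraries and rose in 3 of 3 luciferase libraries against their DMSO libraries.

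With oligomycin, myotubes minus luciferase myoblasts gave -0.84 for Klf5 (adjusted p = 3.18e-07), -0.90 for Klf13 (3.37e-06) and -0.47 for Klf7 (0.0104), and cells after 24 hr in low serum minus luciferase myoblasts gave -0.85 for Klf5 (4.18e-07), -0.76 for Klf4 (0.0047) and -0.41 for Klf13 (0.0201). The Klf7 value and the 24 hr values of Klf4 and Klf13 did not pass when some replicate was left out. The last of the 13, a fitted difference of -5.69 for Klf15 between myotubes and luciferase myoblasts, has no usable test. Klf15 passed the count filter through luciferase oligomycin and piericidin groups alone, and the size depends on the prior count since all 3 luciferase DMSO libraries had 0 counts. State cannot be told apart from transduction, doxycycline and serum in these comparisons, and both state comparisons share the luciferase libraries. The luciferase DMSO libraries, used here and in the LbNOX minus luciferase interactions, also served the choice of the genes.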

How the results depend on the processing

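Of 121 calls of a member in a tested comparison, 69 were kept in every alternative run, 52 were lost in at least 1 and 0 changed direction. These include calls of Klf15 and Klf2, kept and lost, which carry no weight since these genes passed the filter through groups where they were high. DESeq2 size factors lost 2 of 121, the DESeq2 Wald test 10 of 120, no count filter 24 of 121, fits of only the groups compared 22 of 115, well position 15 of 115 and the replicate block 3 of 121 (Klf10 with chloramphenicol in LbNOX myoblasts, Klf3 with oligomycin in 5% oxygen and Klf13 with oligomycin after 24 hr). Klf3 with oligomycin in 5% oxygen was also lost with DESeq2 size factors (adjusted p = 0.0762). Leaving out replicates lost 102 of 373. The cause of lost calls was not tested, beyond fewer samples when replicates are left out or only 2 groups are fitted. Well position could not be fitted among 24 hr cells, and in the 48 hr experiment single libraries were left out, an alternative chosen after seeing the data.

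The number of members called moved by over 1.5 times as follows. Without a count filter it went from 5 to 3 for antimycin in LbNOX myoblasts, 2 to 1 for the oligomycin interaction of LbNOX and luciferase myoblasts, 1 to 2 for chloramphenicol in luciferase myoblasts, 6 to 3 for BAM15, 2 to 1 for oligomycin with BAM15, 4 to 2 for oligomycin in 5% oxygen and 5 to 3 for oligomycin after 24 hr. With only the groups compared it went from 2 to 1 for piericidin in LbNOX, 5 to 3 for antimycin in LbNOX and 5 to 1 for piericidin in mitoLbNOX myoblasts, 1 to 0 for chloramphenicol in LbNOX, 2 to 1 for piericidin in myotubes, 6 to 3 for BAM15, 2 to 1 for oligomycin with BAM15, 1 to 0 for oligomycin within 5% oxygen, 1 to 0 for piericidin in GFP myotubes and 5 to 3 for oligomycin after 24 hr. The Wald test gave 3 in the last. Well position gave 0 for chloramphenicol in LbNOX myoblasts, 1 for oligomycin with BAM15 and 4 in place of 7 for myotubes against 24 hr cells. The replicate block gave 0 for chloramphenicol in LbNOX myoblasts.

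Leaving out replicates gave counts of 0 to 2 in place of 2 for piericidin in LbNOX myoblasts, 3 to 4 in place of 5 for antimycin in LbNOX myoblasts, 0 to 3 in place of 5 for piericidin in mitoLbNOX myoblasts, 1 to 1 in place of 2 for the oligomycin interaction of LbNOX and luciferase myoblasts, 0 to 0 in place of 1 for chloramphenicol at 48 hr in LbNOX myoblasts, 1 to 2 in place of 2 for piericidin in myotubes, 1 to 5 in place of 3 for antimycin in myotubes, 3 to 5 in place of 6 for BAM15 in myotubes, 1 to 3 in place of 4 for 5% oxygen in myotubes, 1 to 3 in place of 2 for oligomycin with BAM15 against oligomycin in myotubes, 1 to 4 in place of 4 for oligomycin in 5% oxygen against oligomycin in myotubes, 0 to 1 in place of 1 for oligomycin within 5% oxygen in myotubes, 3 to 6 in place of 7 for oligomycin in GFP myotubes, 0 to 0 in place of 1 for piericidin in cells after 24 hr in low serum, 2 to 2 in place of 5 for oligomycin in cells after 24 hr in low serum, 2 to 4 in place of 4 for the interaction for oligomycin in myotubes minus luciferase myoblasts and 1 to 3 in place of 3 for the interaction for oligomycin after 24 hr low serum minus luciferase myoblasts.

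Numbers of genes called also moved by over 1.5 times. With only the groups compared the count went from 1063 to 558 for piericidin in LbNOX myoblasts, 1 to 0 for piericidin in NDI1 myoblasts, 321 to 171 for LbNOX against luciferase myoblasts, 212 to 92 for mitoLbNOX against luciferase myoblasts, 552 to 228 for NDI1 against luciferase myoblasts, 59 to 23 for the interaction for piericidin in LbNOX minus mitoLbNOX myoblasts, 989 to 645 for chloramphenicol at 48 hr in luciferase myoblasts, 109 to 69 for chloramphenicol at 48 hr in LbNOX myoblasts, 532 to 263 for oligomycin within 5% oxygen in myotubes and 383 to 27 for piericidin in GFP myotubes. Without a count filter the count went from 1 to 552 for piericidin in NDI1 myoblasts, 212 to 542 for mitoLbNOX against luciferase myoblasts, 59 to 130 for the interaction for piericidin in LbNOX minus mitoLbNOX myoblasts, 109 to 750 for chloramphenicol at 48 hr in LbNOX myoblasts, 62 to 483 for the interaction for chloramphenicol in LbNOX minus luciferase myoblasts, 841 to 1362 for piericidin in LbNOX myotubes, 3 to 189 for LbNOX against GFP myotubes, 0 to 197 for the oligomycin interaction of LbNOX and GFP myotubes and 325 to 613 for piericidin in cells after 24 hr in low serum. With the DESeq2 Wald test the count went from 1 to 6 for piericidin in NDI1 myoblasts, 109 to 178 for chloramphenicol at 48 hr in LbNOX myoblasts, 62 to 167 for the interaction for chloramphenicol in LbNOX minus luciferase myoblasts, 3 to 18 for LbNOX against GFP myotubes and 0 to 1 for the oligomycin interaction of LbNOX and GFP myotubes. With well position the count went from 59 to 94 for the interaction for piericidin in LbNOX minus mitoLbNOX myoblasts, 4549 to 2944 for day 4 myotubes against 24 hr low serum and 3702 to 2316 for the interaction for oligomycin in myotubes minus luciferase myoblasts. With the replicate block the count went from 62 to 22 for the interaction for chloramphenicol in LbNOX minus luciferase myoblasts and 3 to 5 for LbNOX against GFP myotubes. Leaving out replicates moved them in 29 of 38 comparisons (70 counts lower, 3 higher). At this depth Klf2 and Klf15 are near the limit of counting.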
